A study of Homo sapiens with 6 samples.

Results

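Genes for heat shock proteins of the cytosol and of mitochondria were examined, 10 in all, chosen by Ensembl gene ID with the version removed: HSPA1A, HSPA8, HSPA9, HSPH1, DNAJB1, HSP90AA1, HSP90AB1, HSPD1, HSPE1 and HSPB1. All 10 IDs were found among the 62492 gene IDs of the deposited count table, and all 10 passed the filter on low counts together with 11643 other IDs. Their levels were followed in ribosome footprint libraries of WPMY-1, an immortalised human prostate stromal line with myofibroblast character. The 3 knockdown libraries, labelled sh61A, carried a short hairpin RNA against TRMT61A, the catalytic subunit of the enzyme that methylates adenosine in tRNA to m1A. The 3 control libraries, labelled shcontrol, carried a control hairpin and are listed as wild type for TRMT61A. The study asked how tRNA methylation by TRMT61A acts on translation.

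Heat shock proteins bind unfolded or partly folded polypeptides and keep them from aggregating. HSP70 proteins bind short exposed stretches in a cycle driven by ATP, J proteins such as DNAJB1 start that cycle, and HSP110 proteins such as HSPH1 reset it. HSP90 proteins act later in folding and hold many kinases and steroid receptors, the androgen receptor among them, in a form that can be activated. In mitochondria HSPA9 pulls imported proteins in and the HSPD1 barrel with its HSPE1 lid folds them. HSPB1 is a small heat shock protein that holds unfolded proteins without ATP and also associates with actin filaments. Many of these genes are induced together by the transcription factor HSF1, which binds inverted GAA units called heat shock elements.

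The letters of that element were looked for in the promoters of these genes, and not all 10 genes held them. RefSeq windows (GRCh38.p14) reach from 250 bases before to 50 bases after an annotated start, and all 10 genes had at least 1 window. They were searched on both strands for GAANNTTC and TTCNNGAA, which are 2 inverted units and read the same on either strand, and for the 3-unit form, GAANNTTC followed by NN and GAA, and its reverse complement. A 3-unit match contains a match to each of the 2-unit motifs. At least 1 of the 2-unit motifs was present in 8 of the 10 genes, against 16.2% of 27305 genes with a window. The 3-unit form was present in 4 of them, against 0.608% of all genes. A gene was counted if any of its windows held a match, and genes differed in their number of windows (35116 windows for the 27305 genes). HSP90AA1, HSP90AB1 and HSPD1 had more than 1 window and held the 3-unit form in only 1 of them. Below, 1 match lying wholly before the start is given for each of 7 genes as 30 bases on the gene's own strand, 5′ to 3′, with the matching letters in capitals.
HSPA1A, chr6:31815426-31815455, plus strand: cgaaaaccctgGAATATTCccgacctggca
HSPA8, chr11:123062345-123062374, minus strand: gcgagcttGAAAGTTCCAGAAcgctgcggt
DNAJB1, chr19:14518456-14518485, minus strand: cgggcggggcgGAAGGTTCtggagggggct
HSP90AA1, chr14:102087111-102087140, minus strand: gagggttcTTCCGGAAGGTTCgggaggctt
HSP90AB1, chr6:44247770-44247799, plus strand: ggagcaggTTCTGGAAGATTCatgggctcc
HSPD1, chr2:197500061-197500090, minus strand: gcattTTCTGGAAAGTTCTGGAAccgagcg
HSPB1, chr7:76302480-76302509, plus strand: ccttaacgagaGAAGGTTCcagatgagggc

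The DNAJB1 and HSPB1 stretches hold the same letters, GAAGGTTC, which also lie within the longer HSP90AA1 match. HSPA8, HSP90AA1, HSP90AB1 and HSPD1 hold the 3-unit form. HSPA9 had a TTCNNGAA match in its window that did not lie wholly before the start, and no match was found in the windows of HSPH1 and HSPE1. A match describes the letters only and says nothing about binding.

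Knockdown libraries 1 to 3 held 17752247, 13284658 and 12704354 footprint counts, against 8008896, 6771455 and 7330168 in control libraries 1 to 3. Counts were compared as CPM, each library's counts relative to its total after TMM scaling. TMM gives each library a factor from a trimmed mean of log ratios to a reference library. The labels do not say that the libraries of a group are separate cultures, and p-values below therefore take in only library-to-library spread, possibly technical. No table given here links other IDs to symbols, so the level of TRMT61A, markers of the stromal line or of other cell types, and the rest of the chaperone network were not analysed here. Footprint counts rest on both the amount of mRNA and the ribosomes on it, and these were not separated here, since the table's RNA columns belong to no sample described and were not used. Nor can bulk libraries tell fewer cells with a gene's mRNA from less of it per cell.

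None of the 10 heat shock genes passed the test between knockdown and control. With edgeR's quasi-likelihood test and an adjusted threshold of 0.05, 0 of 10 were called, against 3.12% of the 11653 IDs tested (1.48% higher and 1.64% lower in the knockdown). DNAJB1 and HSPB1 came closest, in opposite directions, with DNAJB1 higher and HSPB1 lower in the knockdown libraries. They were also the 2 of 10 with an unadjusted p under 0.05, against 16.3% of all IDs tested. The other 2 methods run, DESeq2 and limma voom, each called these 2 genes and no other member, against 10.2% of 8178 IDs with an adjusted p in DESeq2 and 3.8% of 11653 in limma voom. In edgeR, HSPB1 alone was called under library size alone, against 3.41% of 11653 IDs. Both were called without a count filter, against 3.58% of 20515 IDs, and with at least 10 CPM in 3 libraries, where 9 members were tested and 9.85% of 6111 IDs were called. The log2 fold changes of the 10 genes, knockdown over control, had a median of -0.24, against -0.0047 over all IDs tested, with 4 genes above 0 and 6 below. With 1 library left out, that median ran from -0.36 without control library 1 to -0.058 without control library 2. It was -0.57 under library size alone, where the median over all IDs was -0.30.

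**Figure D1:**
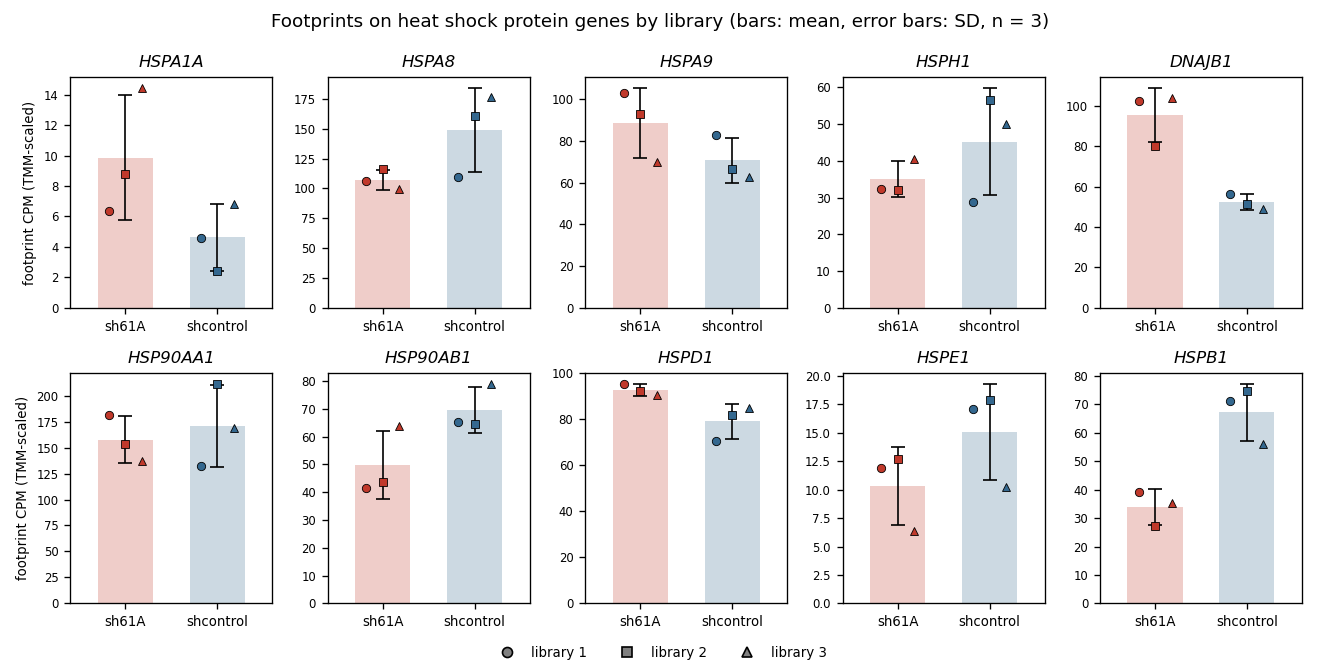
Footprint level of each gene in each library, in TMM-scaled CPM, with knockdown (sh61A, red) left of control (shcontrol, blue); bars are means, error bars SD over 3 libraries, and marker shapes give the library number. The groups are apart for DNAJB1, HSPB1 and HSPD1 and nearly meet for HSP90AB1, while the other 6 genes overlap.

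Summed over the 10 genes, footprints came to 680 ± 35 CPM in knockdown libraries and 723 ± 77 CPM in control libraries (SD, n = 3 each), a ratio of 0.940. The sums were 720, 659 and 661 CPM in knockdown libraries 1 to 3, against 638, 788 and 743 CPM in control libraries 1 to 3. The control library with the lowest sum lay below every knockdown library and the other two controls lay above all of them, so the family as a whole differed by less than the spread between controls. Under scaling by library size alone, the log2 ratio of the sums was -0.40 instead of -0.089, and the median over all IDs moved to -0.30.

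Among the HSP70 proteins, HSPA8 is the constitutive cytosolic form and HSPA1A the form best known for its induction by heat. HSPA8 (ENSG00000109971) stood at 106, 116 and 99.1 CPM in knockdown libraries 1 to 3, against 109, 161 and 176 CPM in control libraries 1 to 3. The knockdown values lay close together, and control library 1 fell among them. The log2 fold change was -0.47 (95% interval -0.99 to 0.042, edgeR adjusted p = 0.357), and with 1 library left out it ran from -0.66 without control library 1 to -0.34 without control library 3 (adjusted p = 0.182 and 0.682 in edgeR). HSPA8 carries small nucleolar RNAs in its introns, and counts per gene ID do not show whether such reads were included.

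HSPA1A (ENSG00000204389) gave few footprints, 97, 104 and 178 counts in knockdown libraries 1 to 3, against 34, 20 and 60 counts in control libraries 1 to 3. In CPM these were 6.38, 8.81 and 14.4 in the knockdown, against 4.61, 2.45 and 6.80 in the control. The groups overlapped by a narrow margin, between knockdown library 1 and control library 3. The log2 fold change was 1.09 (95% interval -0.14 to 2.32, edgeR adjusted p = 0.377), with the widest interval of the 10. It was 0.72 without knockdown library 3, where the DNAJB1 estimate was 0.80. Counting error alone amounts to 22.4% at the lowest of these counts. HSPA1A is near-identical to its neighbour HSPA1B, and how reads shared by both copies were assigned is not given in the sources used here, so its level is uncertain.

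The co-chaperones of HSP70 gave estimates of opposite sign. DNAJB1 (ENSG00000132002), the J protein that delivers substrates to cytosolic HSP70 and switches on its ATPase, had 1554, 942 and 1281 counts in knockdown libraries 1 to 3, against 417, 420 and 433 counts in control libraries 1 to 3. This was 102, 79.8 and 104 CPM in the knockdown and 56.5, 51.5 and 49.1 CPM in the control, so every knockdown library lay above every control library. The means were 95.3 ± 13.4 CPM and 52.4 ± 3.8 CPM (SD, n = 3 each), a fold of 1.82. On the log2 scale the difference was 0.86 ± 0.22 (SE, 95% interval 0.38 to 1.35). The edgeR p was 0.00225 unadjusted and 0.0596 adjusted. It passed in 4 of 15 alternative fits, with adjusted p = 0.00422 in DESeq2, 0.0491 in limma voom, and 0.0435 and 0.0251 in edgeR without a count filter and with a stricter one. DESeq2 made more false calls than edgeR and limma voom on simulated data. With the replicate number as a block, the edgeR adjusted p was 0.103. The estimate stayed between 0.58 and 0.97 on the log2 scale in all 15 alternative fits, and the lowest came from library size alone.

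HSPH1 (ENSG00000120694), the HSP110 protein that exchanges nucleotide on HSP70, stood at 32.3, 32.1 and 40.6 CPM in knockdown libraries 1 to 3, against 28.7, 56.6 and 50.1 CPM in control libraries 1 to 3. Control library 1 was the lowest of all 6 and the other two controls were the highest. Its log2 fold change was -0.37 (95% interval -0.999 to 0.26, adjusted p = 0.620 in edgeR). Without control library 1 it was -0.61, and without control library 2 it was -0.18, so its size rested on which control was included.

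HSP90AA1 (ENSG00000080824), the inducible cytosolic HSP90, stood at 182, 154 and 137 CPM in knockdown libraries 1 to 3, against 132, 211 and 169 CPM in control libraries 1 to 3. The groups overlapped fully and the lowest and highest values were both controls. Its log2 fold change of -0.12 (95% interval -0.64 to 0.40, adjusted p = 0.886 in edgeR) was -0.27 without control library 1 and changed sign to 0.063 without control library 2. HSP90AB1 (ENSG00000096384), the constitutive form, stood at 41.6, 43.8 and 63.8 CPM in the knockdown, against 65.2, 64.5 and 79.0 CPM in the control. All knockdown values lay below all control values, but knockdown library 3 and control library 2 nearly met. Its log2 fold change was -0.49 (95% interval -1.03 to 0.055, adjusted p = 0.370 in edgeR). Together the HSP90 pair came to 207 ± 14 CPM in knockdown and 240 ± 40 CPM in control libraries (SD, n = 3 each), with control library 1 at 197 CPM just below all 3 knockdown libraries. Both genes have processed pseudogenes of near-identical sequence, so their counts depend on how shared reads were placed.

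HSPB1 (ENSG00000106211) showed the opposite pattern to DNAJB1. It had 598, 320 and 435 counts in knockdown libraries 1 to 3, against 524, 610 and 493 counts in control libraries 1 to 3, although the knockdown libraries were deeper. In CPM these were 39.3, 27.1 and 35.2 in the knockdown, against 71.1, 74.8 and 55.9 in the control, with no overlap. The means were 33.9 ± 6.2 CPM and 67.25 ± 9.997 CPM (SD, n = 3 each), a fold of 0.504. On the log2 scale the difference was -0.99 ± 0.25 (SE, 95% interval -1.53 to -0.44). The edgeR p was 0.00188 unadjusted and 0.0545 adjusted. It passed in 5 of 15 alternative fits, with adjusted p = 0.00751 in DESeq2, 0.0411 in limma voom, 0.0326 with library size alone, and 0.0283 and 0.0243 without a count filter and with a stricter one. The same caution on DESeq2 holds here. With the replicate number as a block, the edgeR adjusted p was 0.0960. Over all 15 alternative fits the estimate ran from -1.28 to -0.85 on the log2 scale.

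**Figure D2:**
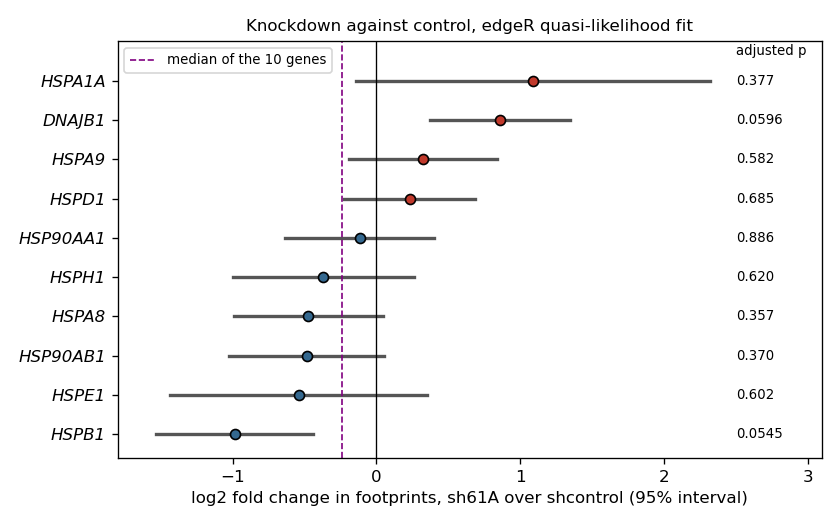
Log2 fold change of footprints, sh61A over shcontrol, for each gene with its 95% interval and the adjusted p of the edgeR fit; the dashed line is the median of the 10 genes, -0.24. The intervals of DNAJB1 and HSPB1 leave out 0 on opposite sides, and the other 8 include it.

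The mitochondrial chaperones were HSPA9, the HSP70 of the matrix, and the 2 parts of the chaperonin. HSPA9 (ENSG00000113013) stood at 103, 92.8 and 70.2 CPM in knockdown libraries 1 to 3, against 83.1, 66.4 and 62.9 CPM in control libraries 1 to 3. The groups overlapped, and the log2 fold change was 0.32 (95% interval -0.19 to 0.84, adjusted p = 0.582 in edgeR). It was 0.20 without knockdown library 1 and 0.039 under library size alone. Like HSPA8, it hosts a small nucleolar RNA in an intron. HSPD1 (ENSG00000144381), the barrel subunit, stood at 95.3, 92.2 and 90.3 CPM in the knockdown, against 70.5, 81.7 and 84.6 CPM in the control. The groups did not overlap and the knockdown libraries varied by only 2.69% (coefficient of variation), against a median of 16.8% over 1136 IDs averaging 50 to 200 CPM. The log2 fold change was 0.23 (95% interval -0.23 to 0.69, adjusted p = 0.685 in edgeR), and it was 0.15 without control library 1 and -0.078, below 0, under library size alone.

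HSPE1 (ENSG00000115541), the lid, had between 79 and 181 counts per library. It stood at 11.9, 12.7 and 6.40 CPM in knockdown libraries 1 to 3, against 17.1, 17.9 and 10.2 CPM in control libraries 1 to 3. Library 3 was the lowest of each group, and the groups overlapped. The estimated log2 fold change was -0.54 (95% interval -1.43 to 0.35, adjusted p = 0.602 in edgeR), and it was -0.28 without knockdown library 3. HSPD1 and HSPE1 lie head to head on chromosome 2 in RefSeq, and their estimates with TMM scaling had opposite signs, with intervals that overlap. The 3 mitochondrial genes together came to 192 ± 22 CPM in knockdown and 165 ± 7 CPM in control libraries, and the 7 cytosolic genes to 488 ± 25 CPM and 559 ± 81 CPM (SD, n = 3 each). The ratio of mitochondrial to cytosolic sums was 0.412, 0.428 and 0.338 in knockdown libraries 1 to 3, against 0.365, 0.267 and 0.269 in control libraries 1 to 3, where control library 1 fell among the knockdown values.

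In all, the groups did not overlap in 4 of the 10 genes, against 24.8% of all IDs tested. DNAJB1 and HSPD1 were higher in every knockdown library, against 12.2% of all IDs, and HSPB1 and HSP90AB1 were lower, against 12.7%. These shares rest on the TMM scaling. HSPA8, HSPH1, HSP90AA1 and HSPD1 were each lowest among the controls in control library 1. The coefficients of variation of HSPA8, HSPH1 and HSP90AA1 over the control libraries were 23.5%, 32.3% and 23.2%, and that of HSPD1 was 9.41%. The control median was 18.1% over 1136 IDs averaging 50 to 200 CPM, a range that HSPH1 fell below. HSPA9 and DNAJB1 were instead highest among the controls in control library 1. That library as a whole had a TMM factor of 0.923, against 1.208 and 1.206 in control libraries 2 and 3. The knockdown factors were 0.858, 0.890 and 0.974. Before scaling, the 10 genes took 0.0588% of the counts of control library 1, against 0.0949% and 0.0894% in control libraries 2 and 3. In knockdown libraries 1 to 3 they took 0.0617%, 0.0585% and 0.0642%.

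Ratios of counts between 2 genes of the same library do not depend on the scaling, though they mix genes of different length and have meaning only between libraries. The pairs were chosen by role, and the last by its values, after the values had been seen, so they are given with no test, and an exact two-sided permutation test of 3 against 3 could not go below 0.1. DNAJB1 counts over HSPA8 counts were 0.960, 0.689 and 1.05 in knockdown libraries 1 to 3, against 0.517, 0.320 and 0.279 in control libraries 1 to 3. The J protein thus took more footprints per HSPA8 footprint in every knockdown library, by 2.47-fold on geometric means. HSPA1A over HSPA8 was 0.0600, 0.0760 and 0.146 in the knockdown, against 0.0422, 0.0152 and 0.0386 in the control, again with no overlap. The share of all pairs of IDs that are apart in this way was not computed, so no background stands beside these ratios. HSPA1A had as few as 20 counts in a control library, and on their own HSPA1A and HSPA8 each overlapped between the groups. DNAJB1 over HSPB1, taken as the 2 genes with the smallest p, was 2.60, 2.94 and 2.94 in the knockdown, against 0.796, 0.689 and 0.878 in the control, a difference of 3.60-fold. Because these 2 genes were already apart in opposite directions, their ratio could not overlap.

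The remaining pairs overlapped. HSPH1 over HSPA8 averaged 0.330 ± 0.070 in knockdown and 0.300 ± 0.046 in control libraries (SD, n = 3 each). HSP90AA1 over HSP90AB1 averaged 3.34 ± 1.12 and 2.48 ± 0.69, and HSPD1 over HSPE1 averaged 9.79 ± 3.76 and 5.66 ± 2.29, each with knockdown before control (SD, n = 3 each). The HSPD1 to HSPE1 ratio was 8.01, 7.25 and 14.1 in knockdown libraries 1 to 3, against 4.13, 4.56 and 8.29 in control libraries 1 to 3. Library 3 was the highest of each group for that pair, as its HSPE1 level was the lowest.

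**Figure D3:**
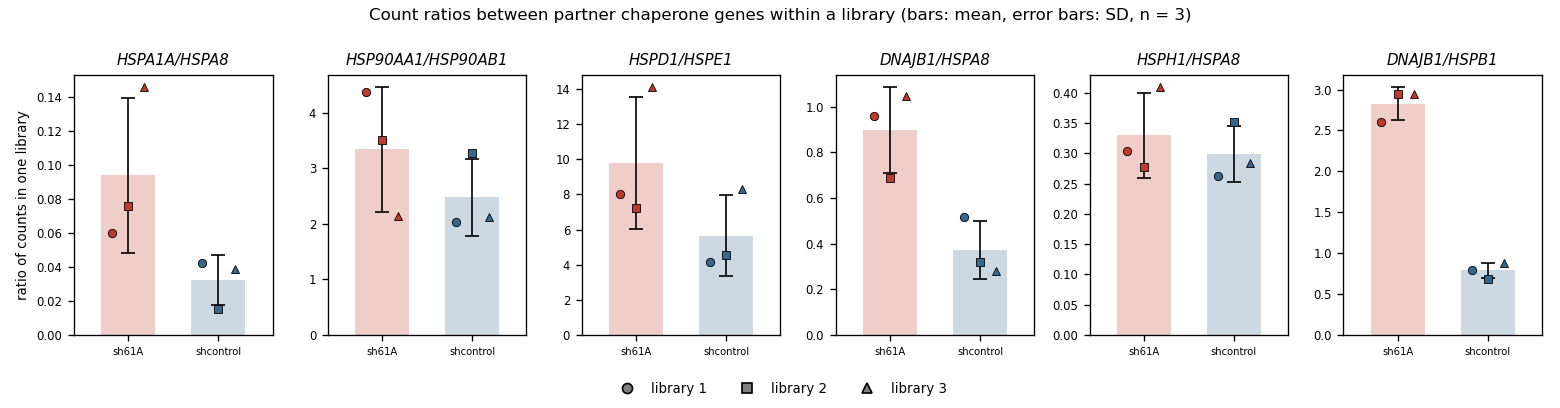
Ratio of footprint counts between 2 heat shock genes of the same library, with knockdown (sh61A, red) left of control (shcontrol, blue); bars are means, error bars SD over 3 libraries. DNAJB1 over HSPB1 runs from 2.60 to 2.94 in knockdown and from 0.689 to 0.878 in control, and the HSPA1A and DNAJB1 ratios to HSPA8 are also apart, while the other 3 pairs overlap. The share of all pairs that are apart was not computed, and HSPA1A had as few as 20 counts in a control library.

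The estimates can be set beside the promoter letters, as a description. The 4 genes with the 3-unit form had log2 fold changes of -0.47 (HSPA8), -0.12 (HSP90AA1), -0.49 (HSP90AB1) and 0.23 (HSPD1). DNAJB1 at 0.86 and HSPB1 at -0.99 share GAAGGTTC, which HSP90AA1 also holds within its 3-unit form, and HSPA1A at 1.09 holds GAATATTC. HSPA9, with a match not wholly before its start, was at 0.32. HSPH1 at -0.37 and HSPE1 at -0.54 had no match in their windows. Footprints do not measure transcription, so these values do not bear on HSF1 itself.

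**Figure D4:**
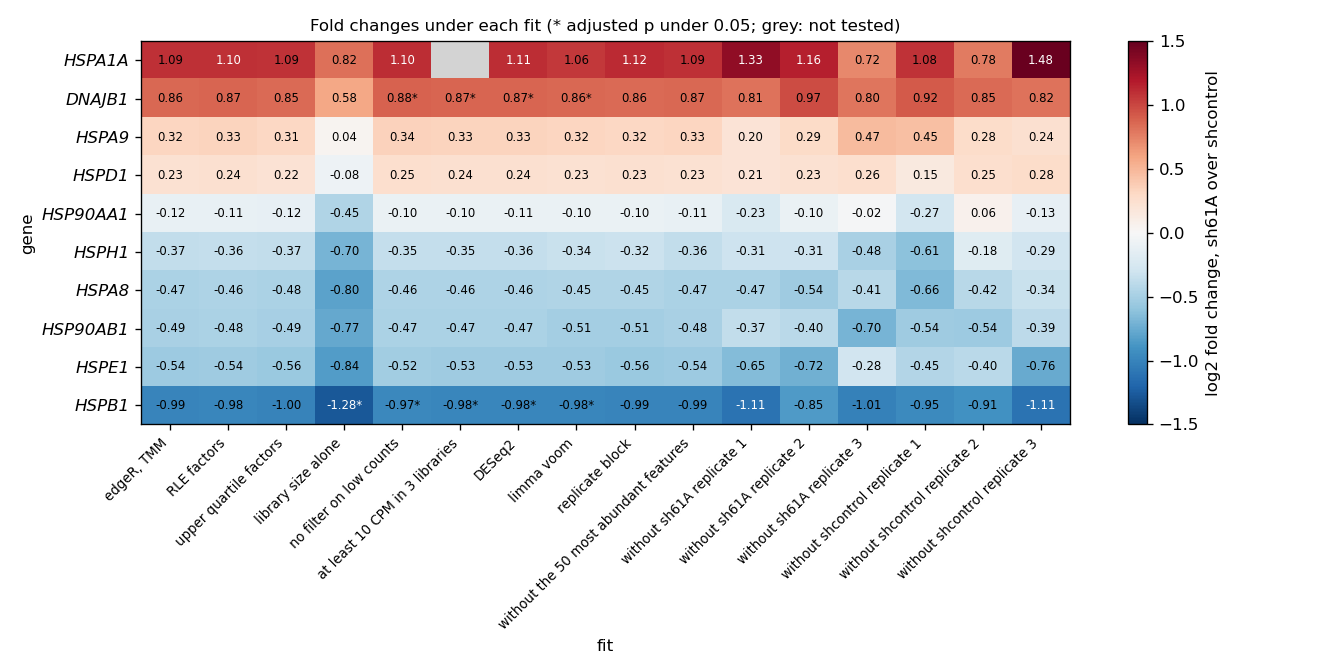
Log2 fold change of each gene, sh61A over shcontrol, under the edgeR fit with TMM and under each of 15 alternatives (HSPA1A was not tested in 1, in grey); colour and number give the value and an asterisk an adjusted p under 0.05. Asterisks stand only in the DNAJB1 and HSPB1 lines, and the sign turns only for HSPD1 with library size alone and for HSP90AA1 without control library 2.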

How the data were processed

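The authors deposited raw read counts for each Ensembl gene ID and library, and per the labels' protocols footprints of 25 to 35 nt were made with RNase I and monosome purification. The tools were fastp and Bowtie 1.3.1 on hg38, per the submitters' processing notes. Not given in the sources used here are the counting tool, annotation, strand and treatment of multiply mapped reads. Control columns, which carry a vector's name, were assigned to the control hairpin samples by assay and replicate number. A further 6 per-sample columns, named for RNA, belong to no sample described here and were not used, so no translational efficiency was computed. Of the 62492 IDs, 0 matched the gene table given; the 10 symbols were supplied with the IDs.

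Features were kept by filterByExpr (11653), scaled by TMM and tested over all 6 libraries with edgeR 4.0.16 in R 4.3.3 (quasi-likelihood F-test, two-sided, Benjamini-Hochberg over all features, threshold 0.05). Standard errors are the log2 fold change divided by the square root of F, and intervals are 95% with the fit's degrees of freedom. Alternatives were DESeq2 1.42.0, limma 3.58.1 voom, other scalings and filters, the replicate number as a block, removal of the 50 most abundant features and each library left out. The code was tested on simulated data. The check on false calls covered edgeR and limma voom and left out DESeq2, which made more false calls than either. The adjusted p-values of DESeq2 are therefore to be read with more caution. All 10 members are named by rule, and the members and lists were chosen with earlier results of these data known. Cell type markers, other chaperone genes and genes of like pattern were not analysed, for want of names. Counts per member ran from 20 upwards in a library, and molecular identifiers are not described.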

Additional observations from a re-analysis of the deposited data

How the results depend on the processing

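Of 149 values of single genes under alternatives, 138 kept their sign and their side of the threshold, 9 gained significance (4 for DNAJB1 and 5 for HSPB1) and 2 changed sign. Those 2 were HSPD1 with library size alone (-0.078) and HSP90AA1 without control library 2 (0.063, with a range of -0.27 to 0.063 over the fits without 1 library). The number of heat shock genes called was 0 in the reported fit, 1 with library size alone, and 2 each without a count filter, with at least 10 CPM in 3 libraries, in DESeq2 and in limma voom. It was 0 with any library left out, where adjusted p in edgeR ran from 0.101 to 0.216 for DNAJB1 and from 0.0893 to 0.217 for HSPB1. Over all IDs the count of 364 of 11653 became 397 of 11653 with library size alone, 443 of 11653 in limma voom, 735 of 20515 without a filter, 602 of 6111 with at least 10 CPM in 3 libraries, 834 of 8178 in DESeq2, 208 with the replicate block and 47 to 171 with a library left out. The replicate block called 0 of the 10 genes. Deviations of same-numbered libraries correlated at -0.0065, -0.015 and 0.039, which gives no sign of pairing. With library size alone 15.9% of calls were higher in the knockdown, against 47.5% with TMM, and the log2 ratio of the summed level moved to -0.40. It ran from -0.18 to -0.027 with a library left out. HSPA1A was not tested at 10 CPM. The cause was not tested in any of these cases. Of the 10 genes, HSPA1A and HSPE1 had the fewest counts and the widest intervals.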
